A study of Mus musculus with 10 samples.

Results

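The 33 genes described here carry out mitochondrial fatty acid oxidation and ketone body use in the mouse heart. They were chosen by symbol for their place in the pathway, with no measured value in the rule. Earlier results of these data were, however, known when the genes and their steps were chosen. The steps are uptake, storage and activation (5 genes), the carnitine shuttle (6), beta-oxidation (12), electron transfer (3), thioesterases and fuel choice (4) and ketone use (3). All 33 were among the 54532 genes of the deposited count table, and all 33 passed the filter on low counts that left 13864 genes for testing. The LPS group held hearts from 5 C57BL/6 mice, 8 weeks old, taken 24 h after an injection of lipopolysaccharide (LPS), which is the endotoxin of Gram-negative bacteria and serves as a model of sepsis. The control group held hearts from 5 mice of the same strain and age that had been given saline. The labels name no mutation or transgene in either group, and the LPS dose, the sex and any batch are not stated in the labels. The labels number the libraries within each group and do not say more about how the animals were kept or matched, so the p-values measure the spread between these 10 samples.

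Fatty acids are the main fuel of the adult heart. A fatty acid taken up from blood or released from a lipid droplet is joined to coenzyme A, passed across the mitochondrial membranes as a carnitine ester, and shortened by repeated rounds of dehydrogenation, hydration, a further dehydrogenation and thiolysis. The electrons leave through electron transfer flavoprotein, and the acetyl-CoA enters the tricarboxylic acid cycle. The heart also oxidises ketone bodies made by the liver, and many of these genes are known targets of the nuclear receptors PPAR alpha and ERR alpha. In studies of septic or endotoxaemic rodents, oxidation of fatty acids by the heart is known to be impaired.

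The plan of the control regions can be seen in the RefSeq promoter table for the GRCm38.p6 build, which held 32 start sites for 27 of the 33 genes. The 250 bases before each start were searched on both strands for AGGTCA, the core sequence that PPAR and ERR receptors share, and for GGGCGG, the GC box bound by Sp1. Cpt1a, Plin5 and Ucp3 are shown because the first fell, the second rose and the third was the most variable member among the LPS libraries but for 1 with few reads, and all of them hold this core. Hadhb is shown because its RefSeq start lies 273 bases from that of Hadha on the other strand. The genes for both subunits of 1 enzyme complex thus share 228 bases of these windows. In the gene models that were counted the starts are closer, at chr5:30155162 for Hadha and chr5:30155248 for Hadhb. Most of the Hadha window therefore lies inside the counted model of Hadha. Capitals mark AGGTCA or its reverse complement TGACCT in the first 3 sequences, and GGGCGG in the last. The windows are chr19:3323051-3323300 on the plus strand for Cpt1a, chr17:56117549-56117798 on the minus strand for Plin5, chr7:100472741-100472990 on the plus strand for Ucp3 and chr5:30155003-30155252 on the plus strand for Hadhb.
Cpt1a: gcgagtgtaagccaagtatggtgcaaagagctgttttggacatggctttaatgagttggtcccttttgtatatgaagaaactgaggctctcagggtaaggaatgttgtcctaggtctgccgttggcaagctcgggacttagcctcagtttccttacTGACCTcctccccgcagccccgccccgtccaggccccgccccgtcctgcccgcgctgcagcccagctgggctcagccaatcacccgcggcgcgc
Plin5: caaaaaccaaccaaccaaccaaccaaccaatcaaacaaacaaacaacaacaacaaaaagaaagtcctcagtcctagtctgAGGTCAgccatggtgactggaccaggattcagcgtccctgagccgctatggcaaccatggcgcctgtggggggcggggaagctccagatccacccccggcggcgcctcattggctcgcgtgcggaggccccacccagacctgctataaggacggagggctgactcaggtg
Ucp3: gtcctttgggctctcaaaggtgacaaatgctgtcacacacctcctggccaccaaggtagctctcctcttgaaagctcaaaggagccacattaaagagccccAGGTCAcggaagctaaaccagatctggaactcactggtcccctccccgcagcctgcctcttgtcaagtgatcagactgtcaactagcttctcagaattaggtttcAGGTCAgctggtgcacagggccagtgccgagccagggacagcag
Hadhb: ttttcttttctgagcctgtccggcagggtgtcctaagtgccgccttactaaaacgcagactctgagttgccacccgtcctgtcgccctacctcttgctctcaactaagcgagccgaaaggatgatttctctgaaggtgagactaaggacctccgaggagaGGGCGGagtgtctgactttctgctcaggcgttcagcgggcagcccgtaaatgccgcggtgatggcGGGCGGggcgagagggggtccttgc
The core stood 94 bases before the start in Cpt1a on the reverse strand, 170 bases before it in Plin5, and at 149 and 44 bases before it in Ucp3. A further Plin5 start, with its window at chr17:56117299-56117548, had no match. Neither did the window of Pdk4, the member with the largest log2 fold change. The core was found in 6 of the 32 windows, of 6 genes (Acadm, Acadvl, Cpt1a, Echs1, Plin5 and Ucp3), and in 14.02% of all 32851 windows of the table. GGGCGG was found in 17 of the 32 windows (15 of the 27 genes), against 32.74% of all windows. A direct repeat of AGGTCA with 1 base between its copies, the usual form of a PPAR site, was in no window of these genes and in 0.03% of all windows. TCAAGGTCA, the extended core of ERR receptors, which contains AGGTCA, was likewise in none of them and in 0.39% of all. These are matches of letters within 250 bases and say nothing about binding, in these windows or beyond them.

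The libraries held between 14607969 and 17012372 counted reads, and levels are given as CPM, the count per 1e6 reads of the library size after TMM scaling. Over the 1000 most variable genes, principal component 1 carried 91% of the variance, with the LPS libraries at 43.7 to 55, saline replicates 1 to 4 at -67 to -55.1, and saline replicate 5 between the groups at -0.563. Where the call on 1 of the 33 genes changed without saline replicate 5, this is stated. Of 10 cardiomyocyte markers 1 was higher in LPS hearts (Mybpc3) with TMM scaling and 5 were lower with total count scaling, and their summed level spanned 45690 to 50420 CPM in LPS hearts and 42820 to 51810 CPM in saline hearts. All 8 endothelial markers were lower in LPS hearts, with summed levels of 519 to 666 CPM, against 875 to 1572 CPM in saline hearts. Of 7 tested pericyte and smooth muscle markers 2 were lower (Pdgfrb and Kcnj8), and the summed level of the list was 1141 to 1336 CPM in LPS hearts, against 1421 to 1668 CPM in saline hearts. Of 4 tested neutrophil markers 2 were higher (S100a8 and Csf3r) and Elane was at 0 in all libraries, and the list summed to 13 to 38.9 CPM in LPS hearts and 1.29 to 22.96 CPM in saline hearts, of which saline replicate 5 was the highest. Of 4 tested white adipocyte markers Cidec was higher and Fabp4 and Lipe were lower, and the list summed to 142 to 212 CPM in LPS hearts, against 267 to 614 CPM in saline hearts, most of it Fabp4. The summed levels of the fibroblast, macrophage, lymphocyte, erythroid and brown adipocyte markers overlapped between the groups. In bulk tissue, fewer cells of a type and less RNA per cell cannot be told apart, and the part of these shifts in the values below was not tested. The defining adipocyte genes Adipoq and Lep did not exceed 1.80 and 0.311 CPM in any LPS library, nor 1.18 and 0.104 CPM in any saline library, and Ucp1 did not exceed 0.123 CPM.

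After LPS the oxidation genes as a group stayed close to their saline levels, with 31 of 33 log2 fold changes smaller than 0.5 in size. Summed over the 33 genes, the LPS libraries held 17280 to 20480 CPM, against 15010 to 17220 CPM in the saline libraries, without overlap. With Pdk4 left out the sums overlapped, at 14960 to 17880 CPM in LPS hearts and 14040 to 15950 CPM in saline hearts, and as a share of all counts the 33 genes took 1.49% to 1.96% in LPS hearts and 1.64% to 1.77% in saline hearts. Pnpla2, Slc27a1, Plin5, Cpt2 and Oxct1 rose, and Cpt1a fell. The threshold was a Benjamini-Hochberg adjusted p under 0.05 over all 13864 genes in edgeR's quasi-likelihood test with TMM scaling. Log2 fold changes are LPS over saline, with their standard error after the ± sign. At that threshold 39.9% of all tested genes were called, 18.9% higher and 21% lower, against 6 of the 33 members, 5 higher and 1 lower. A further count, of genes whose LPS and saline libraries did not overlap, gave 2 members above (Pnpla2 and Cpt2) and 1 below (Cpt1a), against 14.3% and 14.1% of all tested genes. At an unadjusted p under 0.05 the edgeR test held 11 of the 33. Of all tested genes at least the 39.9% called after adjustment were under that level.

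The direction of the small differences depended on how the libraries were scaled. With TMM factors 29 of 33 members had a log2 fold change above 0 and their median was 0.165, against -0.025 for all tested genes. With scaling by total counts the median of all genes moved by -0.273, 8 of 33 members lay above 0, the members' median was -0.108, and none rose while Cpt1a and Mlycd fell, against 12.3% of all genes called higher and 41.6% called lower. With RLE factors 9 members rose and 1 fell, where 20.4% of all genes were higher. Relative to the median of all genes the members' median was higher by 0.189 with TMM, with RLE and with total count scaling, and 29 members lay above that median in each. Every rise reported below was made with TMM factors unless another fit is named. None of the 5 rises remained past the threshold with total count scaling, whereas the fall of Cpt1a did.

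**Figure D1:**
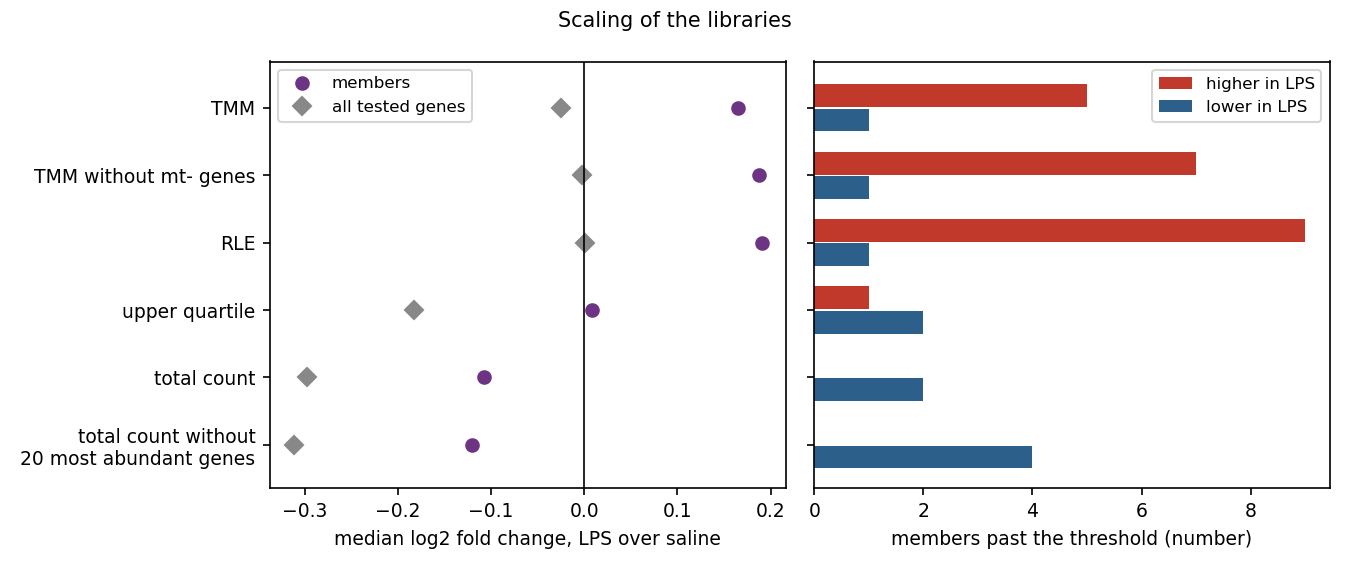
Left, the median log2 fold change (LPS over saline) of the 33 members (circles) and of all tested genes (diamonds) under 6 scalings of the libraries; right, the number of members past the threshold in each direction. The distance between the medians stayed near 0.19 while both moved below 0 with total count scaling, and the members called higher ranged between 0 and 9.

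**Figure D2:**
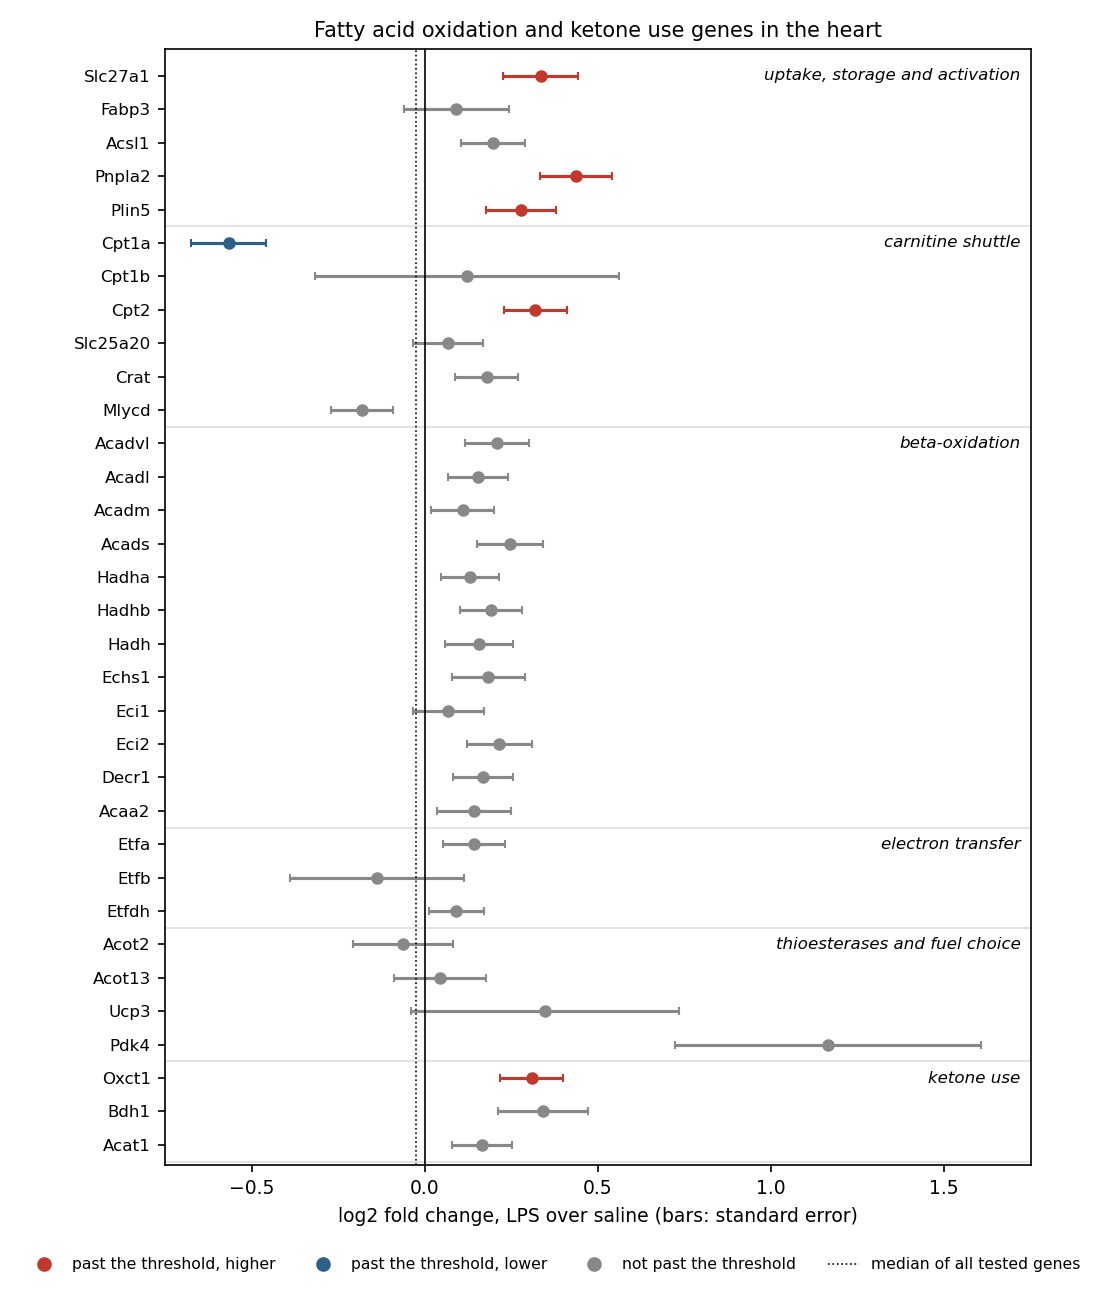
Log2 fold change (LPS over saline, TMM scaling) of each of the 33 members with its standard error, grouped by step from uptake to ketone use. Cpt1a at -0.57 stands apart to the left and Pdk4 at 1.16 to the right with the widest error, and the 12 beta-oxidation genes lie between 0.068 and 0.246, while with total count scaling 0 of these 12 and 8 of all 33 are above 0.

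Uptake, storage and activation held 3 of the 5 rises. Pnpla2, adipose triglyceride lipase, which makes the first cut in the triglyceride of lipid droplets, had 347, 347, 440, 338 and 331 CPM in the LPS libraries, against 258, 241, 261, 259 and 315 CPM in the saline libraries. All LPS libraries lay above all saline libraries, with LPS replicate 3 far above the other LPS libraries and saline replicate 5 far above the other saline libraries. The difference was log2 fold change 0.44 ± 0.10, edgeR adjusted p = 0.00395, and it was 0.51 ± 0.10 without saline replicate 5.

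Slc27a1, fatty acid transport protein 1, which takes up long-chain fatty acids and activates them, had 90.7, 95.7, 111, 88.3 and 74.95 CPM in the LPS libraries, against 70.8, 72.8, 66.5, 69.9 and 85.03 CPM in the saline libraries. Only LPS replicate 5 lay inside the saline range. The difference was log2 fold change 0.34 ± 0.11, edgeR adjusted p = 0.0224, which missed the threshold without saline replicate 3 (edgeR adjusted p = 0.0640) and without saline replicate 4 (0.0561).

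Plin5, perilipin 5, a droplet coat protein of oxidative tissue that binds Pnpla2 and ties droplets to mitochondria, had 101, 108, 138, 100 and 115 CPM in the LPS libraries, against 86.4, 96.5, 90.8, 88.4 and 101 CPM in the saline libraries. The groups overlapped, since LPS replicates 1 and 4 lay just below saline replicate 5. Its difference was the smallest of those past the threshold, log2 fold change 0.28 ± 0.10, edgeR adjusted p = 0.0404, and was lost when any of LPS replicate 3 or saline replicates 1, 3 and 4 was left out (edgeR adjusted p up to 0.0941). As a ratio within each library, which no scaling can move, Plin5 reads were 0.311 of Pnpla2 reads in LPS hearts and 0.348 in saline hearts (geometric means), a log2 difference of -0.165 with an adjusted p of 0.198 over the 5 ratios computed (two-sided exact permutation test, unadjusted p = 0.0397). Without LPS replicate 5 this ratio passed, at -0.203 (exact permutation test, adjusted p = 0.0397).

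Fabp3 and Acsl1 did not pass the threshold. Fabp3, the fatty acid-binding protein of heart muscle, was the most abundant of the 33 per length, at 2620 ± 726 CPM per kb in LPS hearts and 2460 ± 159 CPM per kb in saline hearts (SD, n = 5 each). Its LPS libraries spread from 1569 to 3060 CPM, with LPS replicate 1 the highest and LPS replicate 5 the lowest, on both sides of the 1886 to 2193 CPM of the saline libraries. Acsl1, the main long-chain acyl-CoA synthetase of heart, measured 963 ± 82.3 CPM in LPS hearts and 840 ± 87.1 CPM in saline hearts (SD, n = 5 each), with a log2 fold change of 0.20 ± 0.09 and an edgeR adjusted p of 0.11, and passed without saline replicate 5 (edgeR adjusted p = 0.0470).

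**Figure D3:**
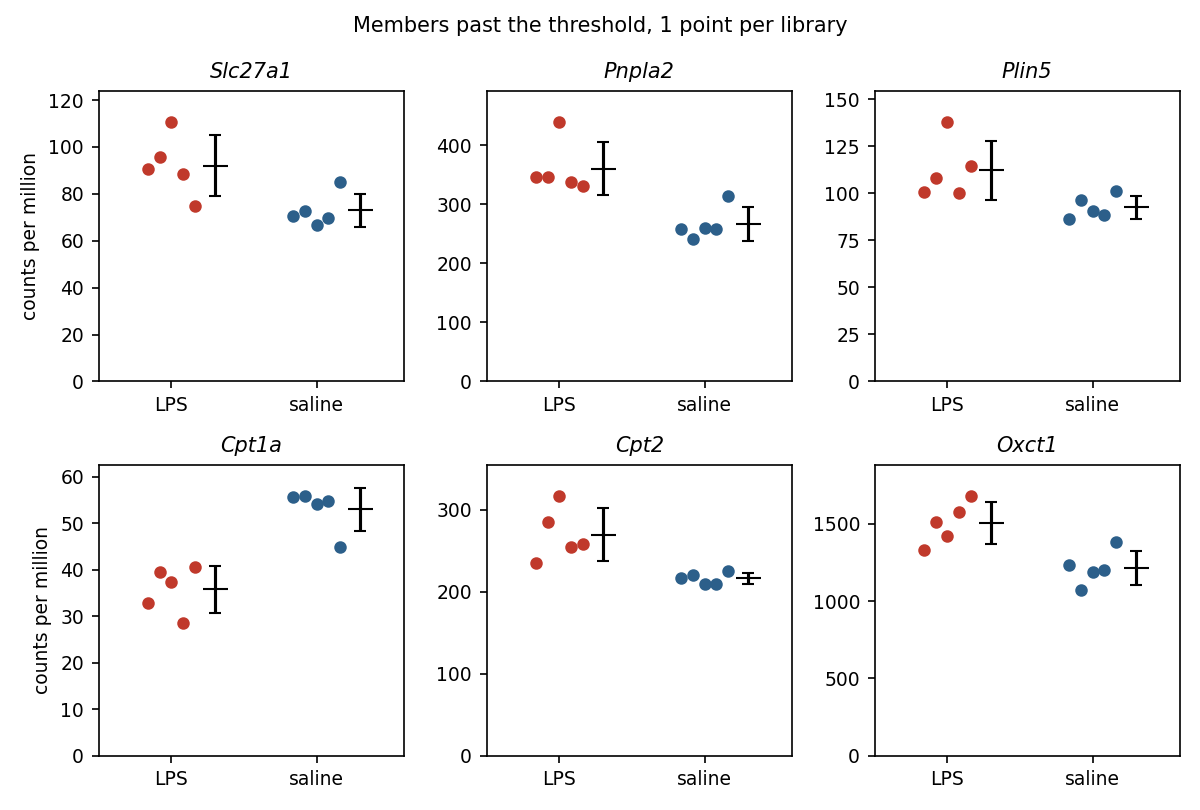
CPM of the 6 members past the threshold with TMM scaling, 1 point per library, LPS on the left and saline on the right of each panel, with mean and SD beside the points; axes start at 0. Pnpla2 and Cpt2 show no overlap with LPS above, Cpt1a shows none with LPS below, and saline replicate 5 (rightmost saline point) is nearest to the LPS libraries in all of them.

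Of the 6 carnitine shuttle genes Cpt1a fell and Cpt2 rose, the rise only with some of the scalings. Cpt1a, the liver-type carnitine palmitoyltransferase 1, which makes acylcarnitine at the outer membrane and is inhibited by malonyl-CoA, had 32.95, 39.6, 37.3, 28.5 and 40.5 CPM in the LPS libraries, against 55.6, 55.9, 54.1, 54.7 and 44.8 CPM in the saline libraries. The groups did not overlap, and saline replicate 5 alone came near the LPS range. Cpt1a fell by 0.57 ± 0.11 on the log2 scale (edgeR adjusted p = 0.000816), and by 0.62 without saline replicate 5. It was the only member past the threshold in all 21 alternatives run.

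Cpt2, carnitine palmitoyltransferase 2, which returns the acyl group to coenzyme A at the inner membrane, had 234, 284, 317, 254 and 259 CPM in the LPS libraries, against 216, 220, 210, 210 and 225 CPM in the saline libraries. All LPS libraries lay above the saline libraries, which kept to a narrow range, and LPS replicate 1 came closest to them. The difference was log2 fold change 0.32 ± 0.09, edgeR adjusted p = 0.0124, and it held when any 1 library was left out. With total count scaling it was 0.05 (edgeR adjusted p = 0.696).

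Cpt1b, the muscle-type form known as the main carnitine palmitoyltransferase 1 of the adult heart, was listed with only 203 reads in all 10 libraries. In the GENCODE M21 annotation 81.4% of its exonic bases are shared with Gm44502, a gene model on the same strand that was listed with 1 read. How the authors counted reads that fall in more than 1 gene model is not stated in the labels or file headers, so this count cannot be read as the level of Cpt1b, and the ratio of Cpt1a to Cpt1b (two-sided exact permutation test, adjusted p = 0.427) says little. For what it holds, Cpt1b measured 1.30 ± 0.867 CPM in LPS hearts and 1.21 ± 0.563 CPM in saline hearts (SD, n = 5 each), with a log2 fold change of 0.12 ± 0.44 and an edgeR adjusted p of 0.851.

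The other shuttle genes did not pass. Slc25a20, the carnitine-acylcarnitine translocase of the inner membrane, measured 147 ± 20.3 CPM in LPS hearts and 140 ± 8.35 CPM in saline hearts (SD, n = 5 each), with a log2 fold change of 0.07 ± 0.10 and an edgeR adjusted p of 0.64. Crat, carnitine acetyltransferase, which buffers acetyl-CoA as acetylcarnitine, measured 529 ± 48.1 CPM in LPS hearts and 468 ± 38.5 CPM in saline hearts (SD, n = 5 each), with a log2 fold change of 0.18 ± 0.09 and an edgeR adjusted p of 0.132. Mlycd, malonyl-CoA decarboxylase, which removes the inhibitor of carnitine palmitoyltransferase 1, was one of 4 members with a log2 fold change below 0, with 94.02, 83.6, 98.3, 76.9 and 76.7 CPM in the LPS libraries, against 96.4, 101, 96.1, 98.7 and 94.9 CPM in the saline libraries. Of its LPS libraries 4 lay below every saline library (log2 fold change -0.18 ± 0.09, edgeR adjusted p = 0.126), and it passed with upper quartile scaling and with both total count scalings. Acaca and Acacb, the enzymes that make malonyl-CoA, did not pass either, with log2 fold changes of -0.05 ± 0.17 and 0.10 ± 0.10 (edgeR adjusted p = 0.827 and 0.445).

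The 12 beta-oxidation genes differed little, and none passed the threshold. Their log2 fold changes ran between 0.068 (Eci1) and 0.246 (Acads) with a median of 0.161, all above 0 with TMM factors, whereas with total count scaling 0 of the 12 were above 0 and their median was -0.111. In DESeq2 4 of the 12 were called higher (Acadvl, Acads, Hadhb and Eci2), against 21.5% of all genes. With RLE factors 3 were (Acadvl, Acads and Eci2), against 20.4%. Acads was also called with TMM factors without mitochondrially encoded genes and with a filter of 1 CPM in 5 libraries. Total count scaling without the 20 most abundant genes called Acadm lower, against 44.7% of all genes. Summed over the 12 genes, the LPS libraries held 7676, 8155, 8927, 8657 and 7171 CPM, against 7127, 6927, 7168, 7204 and 8028 CPM in the saline libraries. LPS replicate 5 lay within the range of saline replicates 1 to 4, and saline replicate 5 lay within the LPS range.

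Of the acyl-CoA dehydrogenases, which open each round and differ in the chain length they prefer, Acads (short chain) came nearest to the threshold. It had 185, 206, 221, 200 and 158 CPM in the LPS libraries, against 172, 158, 168, 154 and 167 CPM in the saline libraries. LPS replicate 5 lay within the saline range, and the other 4 LPS libraries lay above every saline library (log2 fold change 0.25 ± 0.10, edgeR adjusted p = 0.0546). Acadvl (very long chain) measured 431 ± 37.99 CPM in LPS hearts and 373 ± 32.4 CPM in saline hearts (SD, n = 5 each), with a log2 fold change of 0.21 ± 0.09 and an edgeR adjusted p of 0.0845, with 42.9% of its exonic bases shared with Dvl2 on the other strand, which had 480 reads in all. Acadvl passed without saline replicate 5 (log2 fold change 0.25, edgeR adjusted p = 0.0437). Acadl (long chain) measured 990 ± 72.1 CPM in LPS hearts and 890 ± 78.2 CPM in saline hearts (SD, n = 5 each), and Acadm (medium chain) measured 1129 ± 93.2 CPM in LPS hearts and 1047 ± 106 CPM in saline hearts (SD, n = 5 each) (edgeR adjusted p = 0.176 and 0.369).

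Hadha and Hadhb, the alpha and beta subunits of the trifunctional protein that carries out the later reactions on long chains, differed by 0.13 ± 0.08 and 0.19 ± 0.09 on the log2 scale (edgeR adjusted p = 0.242 and 0.106). Hadhb had 1442, 1539, 1701, 1653 and 1285 CPM in the LPS libraries, against 1284, 1285, 1333, 1309 and 1465 CPM in the saline libraries, with saline replicate 5 far above the other saline libraries and LPS replicate 5 level with the lowest of them, and it did not pass without saline replicate 5. Reads of Hadha were 0.927 times those of Hadhb in LPS hearts and 0.965 times in saline hearts, a log2 difference of -0.057 that did not pass (two-sided exact permutation test, adjusted p = 0.427 over 5 ratios). Without LPS replicate 5 it was -0.102 and passed (exact permutation test, adjusted p = 0.0397). This pair shares the divergent promoter printed above.

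Among the enzymes of the later steps on shorter chains, Echs1, the short-chain enoyl-CoA hydratase, had 378, 384, 383, 420 and 283 CPM in the LPS libraries, against 320, 300, 327, 314 and 366 CPM in the saline libraries. LPS replicate 5 was below every saline library and the other 4 LPS libraries were above every one (log2 fold change 0.18 ± 0.11, edgeR adjusted p = 0.189). Acaa2, the mitochondrial 3-ketoacyl-CoA thiolase, showed the same arrangement with 728, 751, 951, 756 and 590 CPM in the LPS libraries, against 658, 676, 693, 697 and 697 CPM in the saline libraries (log2 fold change 0.14 ± 0.11, edgeR adjusted p = 0.319). Hadh, the 3-hydroxyacyl-CoA dehydrogenase of medium and short chains, measured 553 ± 66.3 CPM in LPS hearts and 496 ± 42.3 CPM in saline hearts (SD, n = 5 each) (edgeR adjusted p = 0.233).

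The auxiliary enzymes that deal with the double bonds of unsaturated fatty acids did not pass either. Eci1, an enoyl-CoA isomerase, had the smallest difference of the 12, at 225 ± 32.1 CPM in LPS hearts and 214 ± 5.05 CPM in saline hearts (SD, n = 5 each) (edgeR adjusted p = 0.634). Eci2, another isomerase, found in mitochondria and peroxisomes, measured 124 ± 14.7 CPM in LPS hearts and 106 ± 5.22 CPM in saline hearts (SD, n = 5 each), with a log2 fold change of 0.21 ± 0.09 and an edgeR adjusted p of 0.0826. Decr1, the mitochondrial dienoyl-CoA reductase, measured 414 ± 42.9 CPM in LPS hearts and 369 ± 13.98 CPM in saline hearts (SD, n = 5 each), with a log2 fold change of 0.17 ± 0.09 and an edgeR adjusted p of 0.146.

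The number of calls depended most on 1 LPS library. Without LPS replicate 5, 13 members rose, 7 of them beta-oxidation genes (Acadvl, Acads, Hadhb, Echs1, Eci2, Decr1 and Acaa2), against 19.1% of all genes called higher. Without saline replicate 5, 7 members rose, against 21% of all genes. Without both, 17 of the 33 rose, 9 of them beta-oxidation genes, against 21.8% of all genes. In each of these fits Cpt1a was the only member that fell. Left out alone, no other library moved the count of rising members outside 3 to 6. LPS replicate 5 was the lowest LPS library for 19 members, and saline replicate 5 was the highest saline library for 21. Leaving out these libraries raises the log2 fold changes of such members, so the larger counts are no separate support for a rise. On principal component 1 LPS replicate 5 (46.8) lay among the other LPS libraries.

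**Figure D4:**
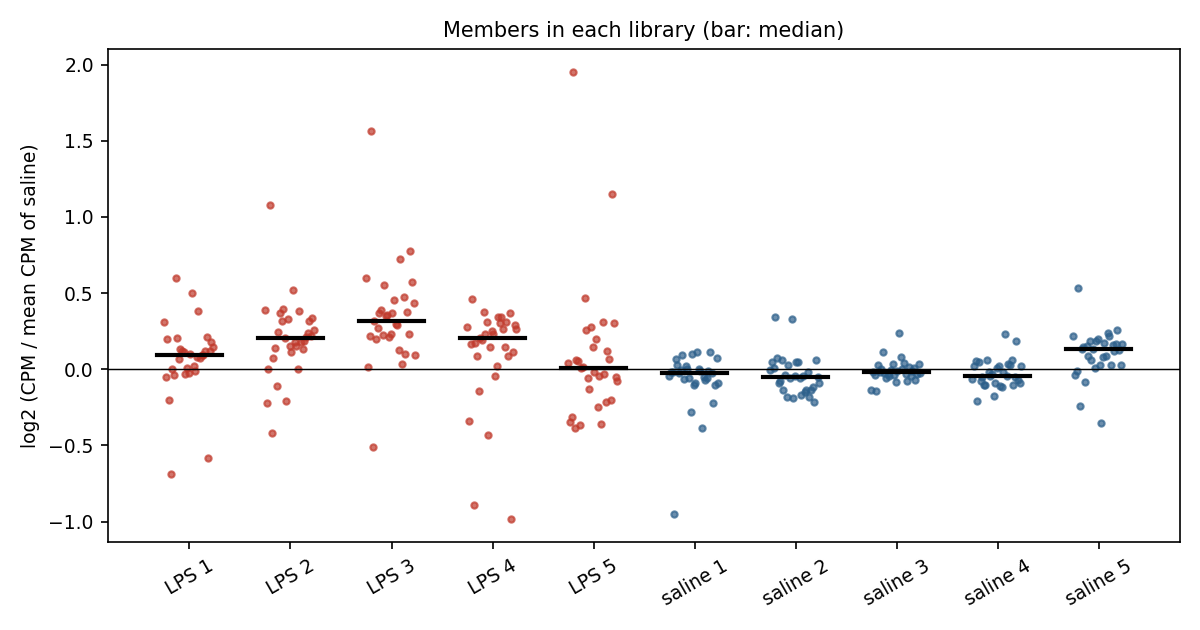
Log2 ratio of each member's CPM (TMM scaling) to its saline mean in each library, LPS replicates on the left and saline replicates on the right, with the median as a bar; Cpt1b and Etfb, whose exons are mostly shared, are left out, so 31 points a library. Medians are 0.314 in LPS replicate 3, 0.005 in LPS replicate 5 and 0.134 in saline replicate 5, and lie between -0.053 and -0.019 in the other saline libraries.

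Many members shared their high and low libraries. LPS replicate 3 had the highest LPS value for 17 of the 33 and LPS replicate 5 the lowest for 19, while saline replicate 5 was the highest saline library for 21. The coefficient of variation over 5 libraries had a median of 12.3% in LPS hearts and 8.54% in saline hearts, and was larger in LPS hearts for 28 of 33 members. Etfdh varied least among the LPS libraries (6.17%) and Cpt1b, Ucp3 and Pdk4 varied most (66.5%, 56.4% and 53.9%). Set against the summed cardiomyocyte markers of the same library, the summed members were 0.382 ± 0.0244 in LPS hearts and 0.332 ± 0.0188 in saline hearts (SD, n = 5 each), and 0.341 ± 0.0123 and 0.313 ± 0.0142 with Pdk4 left out.

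Electron transfer flavoprotein and its dehydrogenase, which hand the electrons of the acyl-CoA dehydrogenases to ubiquinone, did not pass. Etfa, the alpha subunit, measured 518 ± 48.5 CPM in LPS hearts and 470 ± 35.8 CPM in saline hearts (SD, n = 5 each), with a log2 fold change of 0.14 ± 0.09 and an edgeR adjusted p of 0.237, and Etfdh, the dehydrogenase, measured 637 ± 39.3 CPM in LPS hearts and 598 ± 36.7 CPM in saline hearts (SD, n = 5 each), with a log2 fold change of 0.09 ± 0.08 and an edgeR adjusted p of 0.394. Etfb, the beta subunit, had 52.4, 21.8, 25.4, 23.6 and 19.5 CPM in the LPS libraries, against 26.99, 38.4, 29.7, 31.3 and 30.9 CPM in the saline libraries. LPS replicate 1 was above every saline library and the other 4 were below every one (log2 fold change -0.14 ± 0.25, edgeR adjusted p = 0.702), and without LPS replicate 1 Etfb fell by 0.47 ± 0.12 on the log2 scale (edgeR adjusted p = 0.00682). As with Cpt1b, 58.2% of its exonic bases are shared with Gm45233 and Mir7051 on the same strand, so its count and the ratio of Etfa to Etfb (two-sided exact permutation test, adjusted p = 0.427) cannot be read as levels.

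Fuel choice gave the widest difference of all 33, in a gene whose LPS libraries spread widely. Pdk4, pyruvate dehydrogenase kinase 4, which shuts pyruvate out of the tricarboxylic acid cycle when fat is burned and is a known PPAR target, had 764, 1854, 2599, 1210 and 3399 CPM in the LPS libraries, against 453, 1111, 793, 761 and 1268 CPM in the saline libraries. The fitted fold was 2.24, but LPS replicates 1 and 4 lay within the saline range, while LPS replicates 5 and 3 were the highest of the 10 libraries. The test missed the threshold (log2 fold change 1.16 ± 0.44, edgeR adjusted p = 0.0669), and it was passed without LPS replicate 1 (edgeR adjusted p = 0.0231), in DESeq2 (adjusted p = 0.0134) and in limma voom (adjusted p = 0.0372). Among the levels per kb of the 33 genes Pdk4 was at rank 2 in LPS hearts, at 560 ± 302 CPM per kb, against rank 8 in saline hearts, at 249.9 ± 90.98 CPM per kb (SD, n = 5 each).

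Ucp3, uncoupling protein 3 of the inner membrane, which is induced when fatty acid supply exceeds oxidation, had 39.5, 73.6, 101, 29.9 and 131 CPM in the LPS libraries, against 50.6, 50.98, 56.2, 67.05 and 70.5 CPM in the saline libraries. LPS replicates 2, 3 and 5 lay above every saline library and LPS replicates 1 and 4 lay below every one, and the test was not passed (log2 fold change 0.35 ± 0.39, edgeR adjusted p = 0.52). Angptl4, a secreted inhibitor of lipoprotein lipase and the gene with the largest rise in a list of other PPAR targets, had 18.03, 27.9, 88.1, 22.2 and 85.99 CPM in the LPS libraries, against 11.8, 11.3, 5.60, 8.44 and 10.3 CPM in the saline libraries. Its groups did not overlap and it rose (log2 fold change 2.35 ± 0.54, edgeR adjusted p = 0.00841). The order of the LPS libraries was the same for Pdk4 and Ucp3 in replicates 5, 3 and 2 at the top, and replicates 3 and 5 were also the top pair for Angptl4.

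**Figure D5:**
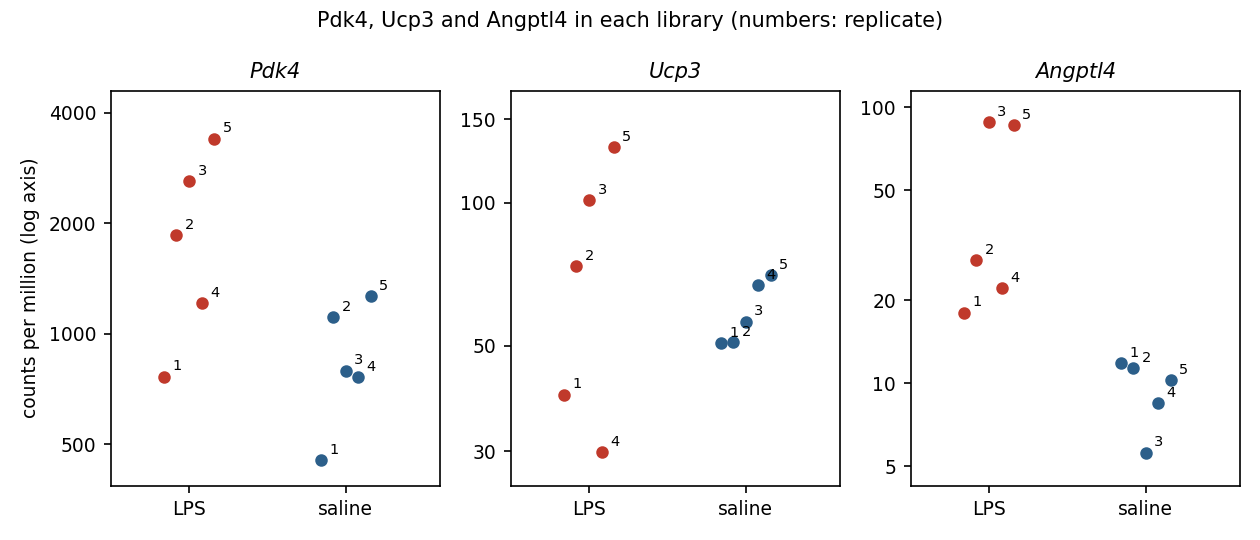
CPM (log axes, TMM scaling) of Pdk4, Ucp3 and Angptl4 in each library, LPS left of saline, with the replicate number beside each point. LPS replicates 3 and 5 are the highest of each panel, at 2599 and 3399 CPM for Pdk4, 101 and 131 CPM for Ucp3 and 88.1 and 85.99 CPM for Angptl4.

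The thioesterases, which release free fatty acids from acyl-CoA, did not pass. Acot2, of the mitochondrial matrix, measured 52.9 ± 11.1 CPM in LPS hearts and 55.3 ± 9.27 CPM in saline hearts (SD, n = 5 each), with a log2 fold change of -0.06 ± 0.14 and an edgeR adjusted p of 0.76. Acot13, bound to mitochondria, measured 203 ± 32.5 CPM in LPS hearts and 197 ± 29.8 CPM in saline hearts (SD, n = 5 each), with a log2 fold change of 0.04 ± 0.13 and an edgeR adjusted p of 0.82. In both genes the ranges of the groups overlapped.

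Of the 3 ketone use genes 1 rose. Oxct1, succinyl-CoA:3-ketoacid CoA transferase, the enzyme of the committing step of ketone use, which liver cells lack, had 1329, 1511, 1419, 1577 and 1681 CPM in the LPS libraries, against 1232, 1069, 1188, 1200 and 1381 CPM in the saline libraries. Only LPS replicate 1 lay within the saline range, below saline replicate 5. The difference was log2 fold change 0.31 ± 0.09, edgeR adjusted p = 0.0146, and it held when any 1 library was left out.

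Bdh1, mitochondrial 3-hydroxybutyrate dehydrogenase, which makes acetoacetate, lay just outside the threshold with 57.9, 58.6, 55.9, 39.6 and 46.8 CPM in the LPS libraries, against 44.2, 42.2, 48.2, 37.8 and 31.98 CPM in the saline libraries. Of the LPS libraries 3 were above every saline library and none lay below the saline range (log2 fold change 0.34 ± 0.13, edgeR adjusted p = 0.051). It passed when LPS replicate 4, LPS replicate 5 or saline replicate 3 was left out (edgeR adjusted p = 0.0123 to 0.0456). Acat1, acetoacetyl-CoA thiolase, the last step, measured 565 ± 36.6 CPM in LPS hearts and 504 ± 44.5 CPM in saline hearts (SD, n = 5 each), with a log2 fold change of 0.17 ± 0.09 and an edgeR adjusted p of 0.146. The ratio of Bdh1 to Oxct1 reads was 0.0342 in LPS hearts and 0.0335 in saline hearts (two-sided exact permutation test, adjusted p = 0.889 over 5 ratios).

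Neighbouring genes of the same pathways, from lists chosen beside the 33, included larger changes than the oxidation genes. The calls in these lists and those below stand against 18.9% of all tested genes higher and 21% lower. With total count scaling those shares were 12.3% and 41.6%. Of 12 tested genes of fatty acid uptake and activation 2 rose and 2 fell (2 and 6 with total count scaling), with Acsl4 and Acsl5, further acyl-CoA synthetases, higher by 1.27 ± 0.14 and 0.59 ± 0.10 (edgeR adjusted p = 9.46e-06 and 0.000279). Fabp5, a fatty acid-binding protein of endothelium and other cells, fell by 2.33 ± 0.34 (edgeR adjusted p = 0.000479), with LPS libraries at 5.16 to 12.85 CPM and saline libraries at 15.7 to 46.8 CPM, and passed also without saline replicate 5; endothelial markers fell in the same libraries, and their part in it was not tested. Fabp4, another such protein, was the other gene of the list that fell (-1.52 ± 0.25, edgeR adjusted p = 0.000698).

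Among 14 genes of lipid droplet turnover, the pathway in which Pnpla2 and Plin5 work, 5 rose and 3 fell (4 and 3 with total count scaling). G0s2, an inhibitor protein of Pnpla2, had 6.01, 3.50, 5.95, 6.13 and 7.48 CPM in the LPS libraries, against 27.7, 31.5, 38.1, 30.9 and 15.1 CPM in the saline libraries. The groups did not overlap, saline replicate 5 was the nearest to the LPS libraries, and G0s2 fell by 2.30 ± 0.25 (edgeR adjusted p = 1.78e-05). Dgat2, which makes triglyceride, rose (log2 fold change 0.62 ± 0.09, edgeR adjusted p = 0.000105) at 361 ± 31.8 CPM in LPS hearts and 236 ± 18.4 CPM in saline hearts (SD, n = 5 each). Plin4, a further droplet coat protein, rose (log2 fold change 0.91 ± 0.14, edgeR adjusted p = 0.000189) at 221 ± 29.3 CPM in LPS hearts and 118 ± 27.96 CPM in saline hearts (SD, n = 5 each), and by 1.07 without saline replicate 5. Cidec, a droplet fusion protein, rose by 1.76 ± 0.58 (edgeR adjusted p = 0.0268) at 1.16 CPM in LPS hearts, against 0.335 CPM in saline hearts, and lost the call when any of 5 libraries was left out (LPS replicates 2, 3 and 4, saline replicates 1 and 4). The droplet proteins Plin2 and Fitm1 also rose (0.61 ± 0.11 and 0.35 ± 0.12, edgeR adjusted p = 0.000613 and 0.0355). The lipases Lipe and Mgll also fell (-0.69 ± 0.13 and -1.49 ± 0.20, edgeR adjusted p = 0.000862 and 0.000111). Cidec, Lipe and Fabp4 also stand in the white adipocyte list, whose summed level was lower in LPS hearts. Most of that sum was Fabp4 itself, with means of 404 of 449 CPM in saline hearts and 141 of 173 CPM in LPS hearts. The sum is therefore no separate measure beside Fabp4, and the part of adipocytes in these changes was not tested.

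The other oxidation lists had few calls with TMM factors. Of the peroxisomal genes, the thiolase Acaa1a rose (0.39 ± 0.12, edgeR adjusted p = 0.0141), a call lost with total count scaling, and the bifunctional enzyme Ehhadh fell (-0.39 ± 0.14, edgeR adjusted p = 0.0448), a call lost without any of 8 libraries. Of 22 other mitochondrial acyl-CoA enzymes 3 rose and none fell, led by the thioesterase Acot9 (0.79 ± 0.10, edgeR adjusted p = 3.5e-05), with Nudt19 and Acss1 at 0.29 and 0.26, calls that were lost without any of 8 and 7 libraries (1 rose and 4 fell with total count scaling). Of 9 other ketone body genes 1 rose and none fell (1 and 2 with total count scaling): Aacs, the cytosolic acetoacetyl-CoA synthetase (0.73 ± 0.15, edgeR adjusted p = 0.00156).

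The receptors and coactivators known to control these genes included 4 of 23 that rose (17.4%) and 2 that fell (8.7%), against 18.9% and 21% of all tested genes. With total count scaling 0 rose and 7 fell, against 12.3% and 41.6% of all genes. Ppargc1b, a coactivator of ERR and PPAR receptors, had 4.91, 7.54, 4.23, 5.48 and 7.92 CPM in the LPS libraries, against 24.4, 15.2, 17.03, 14.4 and 14.5 CPM in the saline libraries. The groups did not overlap, and Ppargc1b fell by 1.51 ± 0.20 (edgeR adjusted p = 4.38e-05). Nrip1, a corepressor, rose by 0.60 ± 0.21 (edgeR adjusted p = 0.0384), a call lost without LPS replicate 2 or any of saline replicates 1 to 4. Ppard, PPAR delta, rose by 0.48 ± 0.14 (edgeR adjusted p = 0.0139), and Lpin1, a coactivator and phosphatidate phosphatase, rose by 0.43 ± 0.14 (edgeR adjusted p = 0.0268), a call lost without LPS replicate 5 or any of saline replicates 2, 3 and 4. The remaining calls were Sirt1, a deacetylase, which rose by 0.42 ± 0.11 (edgeR adjusted p = 0.00618), and Rxra, the partner receptor of the PPARs, which fell by 0.53 ± 0.10 (edgeR adjusted p = 0.000503). Ppara itself measured 31.1 ± 5.42 CPM in LPS hearts and 32.7 ± 4.91 CPM in saline hearts (SD, n = 5 each) (edgeR adjusted p = 0.702).

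In the list drawn up as other PPAR targets, 10 of 15 genes were tested. Of these 5 rose and 1 fell, against 18.9% and 21% of all tested genes (1 and 4 with total count scaling). Whether PPAR receptors control each gene of this list in these hearts was not tested. Beside Angptl4, Pdk3 (0.63 ± 0.20, edgeR adjusted p = 0.0214) and Txnip (0.53 ± 0.17, edgeR adjusted p = 0.0212), an inhibitor of thioredoxin and of glucose uptake, rose, and Cyp4b1 fell (-0.77 ± 0.16, edgeR adjusted p = 0.00137). The call of Pdk3 was lost without LPS replicate 1, and that of Txnip without LPS replicate 5 or saline replicate 3. Pdk1 and Slc25a34 also rose (0.32 ± 0.08 and 0.30 ± 0.09, edgeR adjusted p = 0.0076 and 0.0141).

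The authors' deposited table of Reactome terms lists their own differential genes. There 7 members are listed as up in at least 1 term (Slc27a1, Pnpla2, Cpt2, Acadvl, Acads, Eci2 and Pdk4) and 1 as down (Cpt1a). For mitochondrial fatty acid beta-oxidation the authors' deposited table gives 5 of 36 genes, 5 up and 0 down, with a p-value of 0.999, and for fatty acid metabolism 52 of 168, 26 up and 26 down, with a p-value of 0.953. Of the genes listed there, Acadvl, Acads, Eci2 and Pdk4 did not pass the edgeR threshold used here. Each of them passed in DESeq2 on the same counts (DESeq2 adjusted p = 0.0284, 0.0148, 0.0293 and 0.0134, in that order).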

How the data were processed

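RNA from 10 hearts (5 LPS, 5 saline) was sequenced after an Illumina TruSeq RNA preparation, per the labels' protocols. The authors deposited a table of raw counts per gene with the length of each gene model, which was used for levels per kb. Bowtie 0.12.2 and the mm9 build appear in the submitters' processing notes without a stated role. The sources used here do not give how reads were counted, on which strand, or in shared exons. Of 54532 identifiers 54495 were found in GENCODE M21 and for 53585 the start and end matched, so positions are those of GRCm38. Exons shared with a gene on the other strand touch 10 members, whose reads cannot be told apart from that gene's if counting ignored strand. A deposited Reactome table holds the authors' p-value per term, quoted as theirs. The 30 other columns of values per sample were not used; in 2 further FPKM tables the LPS columns are named for 3 h, whereas the labels and the count table give 24 h, which was followed here.

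Counts were tested with R 4.3.3 and edgeR 4.0.16 (filterByExpr defaults with a minimum count of 10 and a minimum total of 15, TMM factors, quasi-likelihood F-test with robust dispersion, Benjamini-Hochberg adjustment over 13864 genes). The standard error is the absolute log2 fold change over the square root of F. DESeq2 1.42.0, limma 3.58.1, other scalings and filters and left-out libraries were alternatives. The code was tested on simulated data of 5 and 5 libraries, drawn with the dispersion trend of all genes. It recovered 14 of 50 genes changed by a fold of 1.5, 31 of 50 at 2, 47 of 50 at 4 and 46 of 50 at 8. The changed genes were drawn at random from all tested genes, whereas 24 of the 33 members were at or above 100 CPM in saline hearts. These counts therefore do not give the recovery for the members. A gene outside the threshold is not shown to be unchanged. Within-library log2 ratios of 5 pairs of members were compared by a two-sided exact permutation test over 252 assignments of the libraries, whose smallest p is 0.00794. No 2 libraries of a group agreed within sampling noise.

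The members, the step lists and the other lists were chosen with earlier results of these data known. All 33 members are named. From each other list the rule named the 3 genes with the largest log2 fold change past the threshold in the more frequent direction and 1 in the other, and both malonyl-CoA synthesis genes. Cell type markers, Ppara, Fabp4, Lipe, Mgll, Plin2, Fitm1, Sirt1, Rxra, Pdk1 and Slc25a34 were named after their values were seen. The counts of the peroxisomal list are not reported here.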

Additional observations from a re-analysis of the deposited data

Results flagged for a closer look

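For the 33 members and 24 genes of the other lists, each group of 5 libraries was searched for a highest or lowest library that stood apart from the rest, by a gap of more than 0.71 of the group's range to its nearest neighbour. Of 114 groups 9 had one, where chance gives about 1 in 20. Pnpla2 had LPS replicate 3 at 440 CPM above the other LPS libraries and saline replicate 5 at 315 CPM above the other saline libraries. Cpt1a had saline replicate 5 at 44.8 CPM below the other saline libraries. Hadhb had saline replicate 5 at 1465 CPM above them. Etfb had LPS replicate 1 at 52.4 CPM above the other LPS libraries. Fabp5 had saline replicate 5 at 15.7 CPM below the other saline libraries. Plin4 had LPS replicate 5 at 271.5 CPM above the other LPS libraries and saline replicate 5 at 167 CPM above the other saline libraries. Ppargc1b had saline replicate 1 at 24.4 CPM above the other saline libraries. In Pnpla2, Cpt1a, Fabp5 and Plin4 saline replicate 5 lay on the side of the LPS libraries, the same library that stood between the groups on principal component 1. In Hadhb saline replicate 5 lay on the side of LPS replicates 1 to 4, at 1442 to 1701 CPM, but not of LPS replicate 5, at 1285 CPM.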

How the results depend on the processing

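The members that rose numbered 5 with TMM factors, 9 with RLE factors, 1 under upper quartile scaling and 0 under total count scaling, also 0 when the 20 most abundant genes were left out first, 11 in DESeq2, and 17 without saline replicate 5 and LPS replicate 5. Leaving out 1 library gave 3 to 13 that rose and 1 to 2 that fell. The members that fell numbered 2 under upper quartile scaling, 2 under total count scaling and 4 under total count scaling without the 20 most abundant genes. All genes lower in LPS numbered 2916 with TMM, 4407 under upper quartile scaling and 5764 under total count scaling (6191 without the 20 most abundant genes), and those higher numbered 2617, 1712 with total count scaling and 1710 without the 20. Under total count scaling without the 20 most abundant genes Plin5 (-0.003), Nudt19 (-0.005) and Acss1 (-0.019), higher with TMM, had log2 fold changes just below 0, and Acadm (-0.174) and Etfdh (-0.192), not called with TMM, were called lower; Acss1 was at -0.006 with total count scaling. A change of scaling moves all genes together. The within-library differences ranged, with any 1 library or both replicates 5 left out, between -0.782 and -0.22 for Cpt1a to Cpt1b, -0.102 and -0.036 for Hadha to Hadhb, 0.267 and 0.613 for Etfa to Etfb, -0.232 and -0.114 for Plin5 to Pnpla2, and -0.102 and 0.142 for Bdh1 to Oxct1. With the replicate number as a block 6 members rose and 1 fell (2582 and 2836 of all genes), with Pdk4 and Bdh1 past the threshold (edgeR adjusted p = 0.00144 and 0.0176) and Slc27a1, Angptl4, Nudt19 and Acss1 outside it (0.0541, 0.0653, 0.0541 and 0.084); same-numbered libraries correlated by -0.0687 to 0.181 and 1 of 5 correlated best with its own number, so the numbers are not shown to pair the samples.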
